A study of Mus musculus with 57 samples.

Results

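Hoxb1, Hoxb2, Hoxb3 and Hoxb4 are the 4 genes at the 3′ end of the mouse HoxB cluster. They were followed in chromatin profiles of epiblast stem cells (EpiSCs) and early embryos by taking every ChIP-seq and ATAC-seq peak that shared at least 1 bp with a 57 kb window of mm9 chromosome 11 holding these genes. A peak is called a region here, and 131 of the 591931 regions in 32 deposited lists met the rule. The window was divided into zones for Hoxb4, Hoxb3, Hoxb2, the stretch between Hoxb2 and Hoxb1, and Hoxb1, and each region was put in the zone that holds the midpoint of its part inside the window. The zones rest on approximate gene positions, because no mm9 annotation was at hand, so the assignment to exon, intron or UTR was not made and the epiblast and primitive streak markers were not checked. In the RefSeq table of another assembly (GRCm38.p6) the annotated Hoxb3 gene overlaps Hoxb4 and Mir10a, and the antisense gene Hoxb3os overlaps Hoxb3 and Hoxb2. A region in the Hoxb4 or Hoxb2 zone may therefore lie in more than 1 gene.

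EpiSCs are cultured cells taken from the early post-implantation epiblast, here from explants of pre-streak embryos, and were kept with 2 µM IWP2, which blocks Wnt secretion. Stimulation replaced IWP2 with 3 µM CHIR99021, a GSK3 inhibitor that switches on Wnt signalling inside the cell, or with 125 ng/mL Wnt3a protein. ChIP-seq in Wnt3 KO EpiSCs covered H3K4me3 and H3K27ac at 0, 6, 12 and 72 h of CHIR99021, H3K27me3 at those times and after 5 h of Wnt3a, and Ring1b at 0 h, after 5 h of Wnt3a and at 72 h of CHIR99021. H3K27ac was also profiled in wild-type EpiSCs at 24 h and 0 h, and ATAC-seq in wild-type EpiSCs at 48 h and 0 h of CHIR99021 and in wild-type embryos at E6.0, E7.2 and E7.5 (posterior part). The 0 h groups carry IWP2, and the stimulated groups differ from them in both its removal and the added agent. Lists exist for 2 replicates of H3K27ac in wild-type cells at 24 h, of H3K27me3 and Ring1b at 0 h and of each of the E6.0 and E7.2 embryos, and for 1 library in every other group. The labels do not say that replicates came from separate cultures or litters, so the spread between them may be technical. The Wnt3 KO cells are given no clone or passage in the labels.

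Hox genes lie in clusters and are activated in the order in which they stand, with the genes at the 3′ end first, and their products give cells a position along the head-to-tail axis. Hoxb1 is known for its role in the identity of rhombomere 4 of the hindbrain, where it also maintains its own expression together with Pbx cofactors, and Hoxb2 acts downstream of it. Hoxb3 and Hoxb4 are expressed less far forward in the hindbrain. Before activation, Hox clusters are covered by Polycomb proteins, of which Ring1b is a subunit of Polycomb repressive complex 1 and H3K27me3 is the mark set by Polycomb repressive complex 2. H3K4me3 marks promoters, H3K27ac marks active promoters and enhancers, and ATAC-seq lists chromatin that is open to a transposase.

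The promoters of Hoxb1 and Hoxb4 are shown as those of the genes at either end of the window. Of the 4 genes, only these 2 were in the table of promoter sequences (GRCm38.p6). Each is given as 250 bases before and 50 bases after the start. The Hoxb1 stretch lies at chr11:96365508-96365807 and the Hoxb4 stretch at chr11:96318017-96318316, both on the plus strand. These positions are of another build than the regions and cannot be set against them. Capitals mark a match to the Pbx-Hox sequence TGATNNAT, the composite site through which Hoxb1 and Pbx are known to bind.
Hoxb1: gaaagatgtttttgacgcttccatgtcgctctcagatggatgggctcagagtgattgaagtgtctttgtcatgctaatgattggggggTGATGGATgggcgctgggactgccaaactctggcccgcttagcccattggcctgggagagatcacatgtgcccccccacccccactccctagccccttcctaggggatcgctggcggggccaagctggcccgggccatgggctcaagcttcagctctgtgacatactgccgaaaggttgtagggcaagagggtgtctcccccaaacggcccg
Hoxb4: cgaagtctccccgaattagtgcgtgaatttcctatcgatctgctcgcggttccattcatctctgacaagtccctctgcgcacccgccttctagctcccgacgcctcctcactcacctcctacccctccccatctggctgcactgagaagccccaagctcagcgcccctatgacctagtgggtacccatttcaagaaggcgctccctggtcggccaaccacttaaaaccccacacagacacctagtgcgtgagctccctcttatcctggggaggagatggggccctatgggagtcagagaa
The Hoxb1 promoter held 10 CpG dinucleotides, 59.3% G and C, and 1 Pbx-Hox match that begins at base 89. The Hoxb4 promoter held 14 CpG dinucleotides, 58.0% G and C, and no such match. Over the 32851 promoters of the table the medians were 7 CpG dinucleotides and 52.7% G and C, and 8.85% held TGATNNAT on either strand. Neither promoter held a TCF/LEF sequence, searched on either strand as CTTTG with any pair of A or T bases after it, and 16.9% of all promoters did. These are matches of letters only and do not show binding.

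Facts of the libraries that touch the results are as follows. Without read counts in the lists the depth of a library cannot be given, and a region that is not listed may have been missed at low depth. Fold enrichment over local background and −log10 p are the values of the authors' peak caller, and they are used only to describe and order regions within a list. The 2 input libraries had 253 and 424 regions and none in the window. The lists came from 7 processing folders, read from the peak names, and these folders divide some comparisons. H3K27ac in wild-type cells at 24 h and at 0 h came from different folders, as did ATAC-seq at 48 h and at 0 h, so folder and treatment cannot be told apart there. H3K4me3 at 72 h and 0 h shared a folder, as did 6 h and 12 h, and the same holds for H3K27ac in Wnt3 KO cells. For Ring1b and H3K27me3 the 0 h replicates came from different folders, replicate 1 with Wnt3a and replicate 2 with 72 h. For the embryos, peak names carry other stage names than the labels do, and the labels were followed. In 2 wild-type H3K4me3 libraries the title and the stimulation label disagree, and these entered no comparison between labelled groups.

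Across the 28 lists of a labelled group with an antibody or ATAC-seq, the Hoxb2 zone held a region in 18, the Hoxb3 zone in 15, the Hoxb4 zone in 13 and the Hoxb1 zone in 10. The stretch between Hoxb2 and Hoxb1 held none in any of them. Presence or absence in the Hoxb2 zone matched that in the Hoxb4 zone in 23 of 28 lists and that in the Hoxb3 zone in 23. Among the gene zones, Hoxb1 matched Hoxb2 in 20 lists and each of Hoxb3 and Hoxb4 in 21. A match includes lists in which neither zone held a region, and the stretch without regions matched Hoxb1 in 18. Hoxb1 held a region together with Hoxb2 in 10 lists, with Hoxb3 in 9 and with Hoxb4 in 8. Hoxb2 did so together with Hoxb3 in 14 and with Hoxb4 in 13. The zones of Hoxb4, Hoxb3, Hoxb2 and Hoxb1 were 10, 25, 8 and 8 kb long. These lists share antibodies, cells and folders, so the counts are a description.

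**Figure D1:**
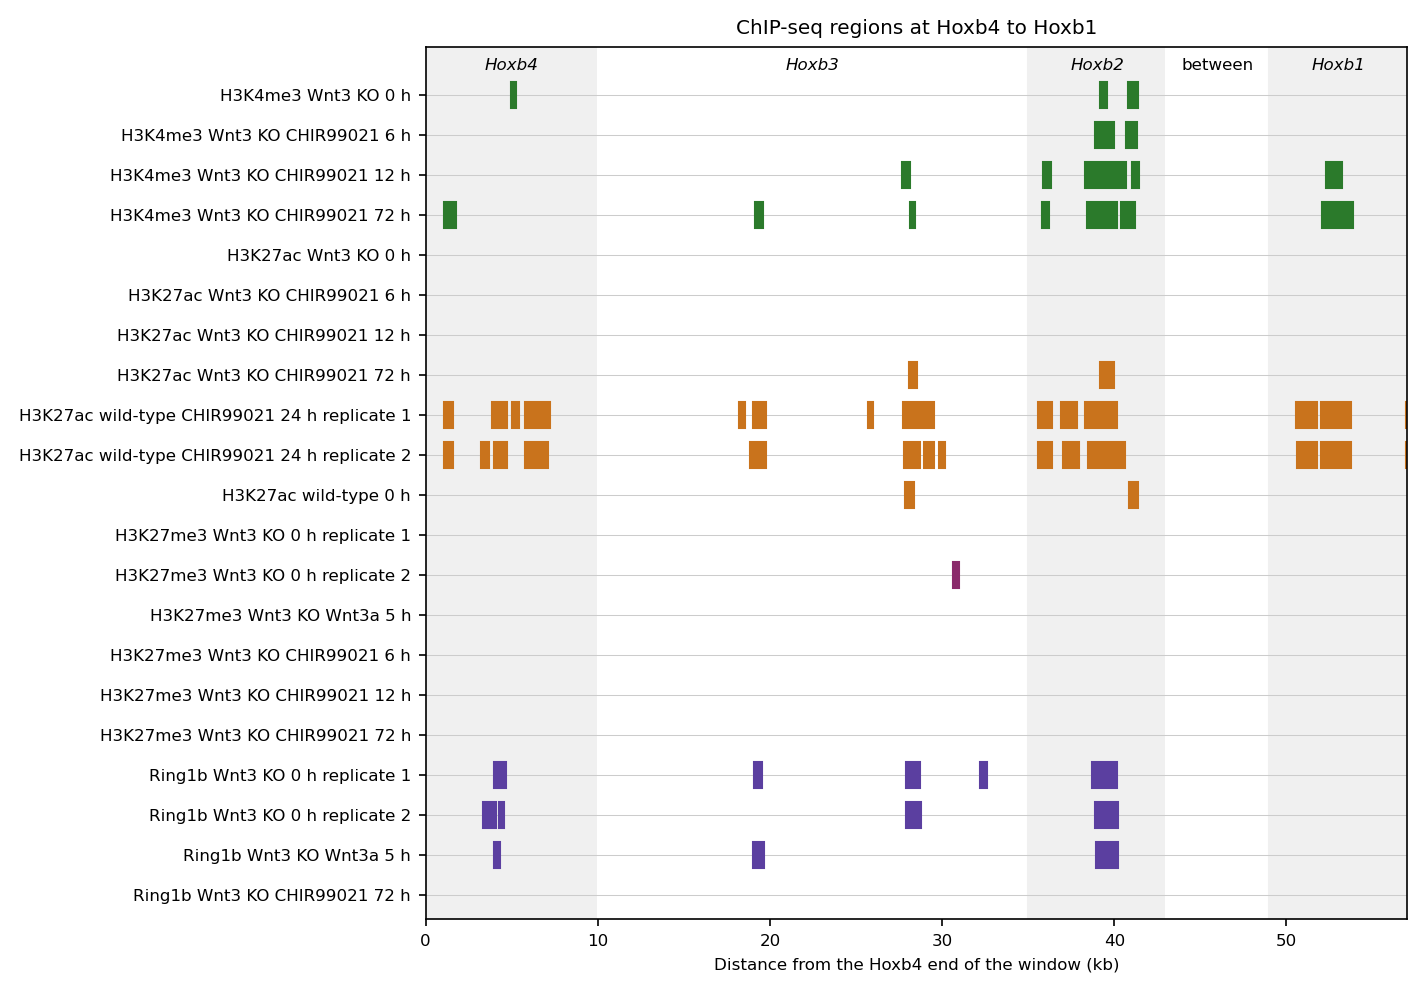
ChIP-seq regions of each list along the window, in kb from the Hoxb4 end; each bar is 1 region drawn to scale, rows are single libraries, and shading separates the gene zones ("between" is the stretch between Hoxb2 and Hoxb1). H3K4me3 regions lie in the Hoxb2 zone at every time and in the Hoxb1 zone at 12 h and 72 h, while Ring1b regions, which lie in the Hoxb4, Hoxb3 and Hoxb2 zones at 0 h, are not listed at 72 h.

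Hoxb1, the gene at the 3′ end, had no region of any ChIP-seq mark at 0 h in the lists of labelled groups. Under CHIR99021 it held H3K4me3 regions in Wnt3 KO cells and H3K27ac regions in wild-type cells only. In Wnt3 KO cells no H3K4me3 region was listed in its zone at 0 h or at 6 h. At 12 h a region of 892 bp stood at chr11:96227324-96228215, with 7.82-fold enrichment and a −log10 p of 17.1. At 72 h the region at chr11:96227093-96228879 was 1787 bp long and was the strongest of the window in its list, with 9.92-fold enrichment and a −log10 p of 75.2. H3K4me3 thus covered 0% of the Hoxb1 zone at 0 h and 6 h, 11.1% at 12 h and 22.3% at 72 h. The times of 6 h and 12 h came from 1 folder and differed in this region.

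H3K27ac in the Hoxb1 zone was listed in wild-type cells at 24 h only, among the lists of this mark. The zone was covered to 37.8% and 37.1% in the wild-type replicates at 24 h, against 0% in wild-type cells at 0 h. Both replicates had 3 regions there, and their strongest region of the whole window was the 1 at chr11:96227033-96228771 in replicate 1 and chr11:96227017-96228768 in replicate 2. Its −log10 p was 107 in replicate 1 and 77.3 in replicate 2. A neighbouring region stood at chr11:96225545-96226794 in replicate 1 and chr11:96225631-96226791 in replicate 2. In Wnt3 KO cells no H3K27ac region was listed in the Hoxb1 zone at 0, 6, 12 or 72 h. Genotype, time and folder all differ between the wild-type and the Wnt3 KO lists, so they cannot be told apart. Neither Ring1b nor H3K27me3 had a region in the Hoxb1 zone in any list.

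Open chromatin was listed at Hoxb1 before stimulation. In wild-type EpiSCs at 0 h the strongest ATAC-seq region of the window was chr11:96226610-96227393, at 12.1-fold enrichment. The same site was listed at 48 h as chr11:96226594-96227280 and stood in 5 of the 7 ATAC-seq lists. A second site, chr11:96230098-96230557 over all lists, was listed in EpiSCs at 48 h and not at 0 h. It was also listed in both E6.0 and both E7.2 embryo libraries, and was the strongest region of the window in each of those 4. Its −log10 p, each within its own list, was 17.2 and 28.9 in the E6.0 replicates and 22.3 and 23.5 in the E7.2 replicates. The posterior part at E7.5 had no region in the Hoxb1 zone. The zone was covered to 25.3% in EpiSCs at 48 h, against 14.4% at 0 h.

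Hoxb2 held H3K4me3 in its zone at each of the 4 times and the strongest Ring1b region of the window in each list that had one. At 0 h H3K4me3 stood at chr11:96214190-96214560 (371 bp) and chr11:96215777-96216390 (614 bp), and both were weak in their list, with 4.90% and 3.63% of the list at a lower −log10 p. At 6 h the first of these sites was listed as chr11:96213906-96214989 (1084 bp), and at 12 h as chr11:96213319-96215651 (2333 bp). At 72 h it was chr11:96213409-96215137 (1729 bp). H3K4me3 covered 12.3% of the zone before stimulation, 21.2% after 6 h, 39.9% after 12 h and 37.4% after 72 h. Coverage was therefore higher at 12 h than at 6 h, within 1 folder, and higher at 72 h than at 0 h, within another. A separate region about the start of the zone, chr11:96210831-96211306 at 12 h and chr11:96210776-96211222 at 72 h, was not listed at 0 h or 6 h.

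Ring1b at Hoxb2 stood at chr11:96213729-96215171 and chr11:96213881-96215241 in the 0 h replicates and at chr11:96213948-96215238 after 5 h of Wnt3a. By −log10 p it was position 48 of 1605 and 31 of 1783 in the 0 h lists and position 54 of 2244 after Wnt3a, so 97.0% or more of each list was weaker. Lists of different lengths cannot be compared by position, and these places describe each list only. At 72 h of CHIR99021 it was not listed. Ring1b covered 16.1% of the Hoxb2 zone after Wnt3a and 0% at 72 h, against 18.0% and 17.0% in the 0 h replicates.

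H3K27ac in the Hoxb2 zone covered 46.0% and 48.5% in the wild-type replicates at 24 h, against 6.54% in wild-type cells at 0 h. The strongest region of the zone at 24 h was chr11:96213302-96215171 in replicate 1 and chr11:96213451-96215594 in replicate 2, over the same ground as H3K4me3 and Ring1b in Wnt3 KO cells. The region at 0 h, chr11:96215869-96216391, shared no base with a region of either 24 h list. In Wnt3 KO cells the zone held no H3K27ac region at 0, 6 or 12 h. At 72 h it held 1 region of 808 bp at chr11:96214195-96215002, the stronger of the 2 in the window.

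ATAC-seq at Hoxb2 listed other sites at 48 h than at 0 h. At 48 h the strongest region of the zone was chr11:96211184-96211783, with a −log10 p of 70.4, which was not listed at 0 h. At 0 h the strongest was chr11:96214063-96214824, inside the ground of the H3K4me3 and Ring1b regions, and it was not listed at 48 h. Of these sites the first was also listed in E7.2 replicate 2 and in the posterior part at E7.5. The second was listed in E6.0 replicate 2 and in both E7.2 replicates. The zone was covered to 9.53% at 48 h, against 13.0% at 0 h.

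Hoxb3 had the longest zone and regions of each mark, H3K27me3 included. H3K4me3 was listed at a site about chr11:96202689-96203416, first at 12 h (458 bp) and again at 72 h (300 bp), and not at 0 h or 6 h. At 72 h the region was close to the lower end of its list, with 0.543% of the list weaker. A further H3K4me3 region, chr11:96194131-96194599, was listed only at 72 h among the 4 times. The same 2 places carried H3K27ac in wild-type cells at 24 h, where the strongest region of the zone was chr11:96202744-96203866 in replicate 1 and chr11:96193861-96194772 in replicate 2. H3K27ac covered 12.2% and 11% of the zone in the 24 h replicates, against 2.18% at 0 h. The 0 h region, chr11:96202842-96203386, overlapped a region of both 24 h replicates. The Wnt3 KO region at 72 h, chr11:96203056-96203556, lay at the same place.

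Ring1b regions at 0 h stood at those 2 places as well. The region chr11:96202912-96203687 in replicate 1 matched chr11:96202913-96203748 in replicate 2, and the region chr11:96194093-96194536 was listed in replicate 1 alone. After 5 h of Wnt3a the place of the first had no region, and chr11:96193990-96194656 was listed. At 72 h none was listed. The single H3K27me3 region of the window, chr11:96205648-96205972, was in 0 h replicate 2, at 2.54-fold enrichment, and 6.96% of its list was weaker. ATAC-seq in the zone covered 7.96% at 48 h, against 7.66% at 0 h. Of the 4 regions at 0 h the strongest, chr11:96202956-96203574, was not listed at 48 h, while the other sites, which include chr11:96205343-96206045 at 48 h, were listed at both times. In the embryos, E6.0 replicates had 1 and 3 regions in the zone, E7.2 replicates 0 and 2, and the posterior part at E7.5 none.

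At Hoxb4, the 5′ end of the window, the H3K4me3 region of 0 h was not listed at a later time. It measured 300 bp at chr11:96179949-96180248 and was the strongest of the 3 in the window at 0 h, with 9.0% of its list weaker. No region was listed at 6 h or 12 h, and at 72 h a region of 684 bp stood elsewhere, at chr11:96176055-96176738. That 72 h place held H3K27ac in both wild-type replicates at 24 h, as chr11:96176043-96176610 and chr11:96176074-96176585. H3K27ac covered 32.4% and 31.8% of the Hoxb4 zone in wild-type cells at 24 h, with 4 regions in each replicate, against 0% in wild-type cells at 0 h. In Wnt3 KO cells no H3K27ac region was listed there at any of the 4 times. Ring1b covered 3.24% of the zone after 5 h of Wnt3a and 0% at 72 h, against 7.05% and 10.8% in the 0 h replicates.

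The open site at Hoxb4 was the most widely listed of the window. It spanned chr11:96179471-96181487 at 48 h, where it was the strongest region of the window (2017 bp, 10.8-fold, −log10 p 96.6), against chr11:96179865-96180312 (448 bp) at 0 h. The longer region contains the shorter, and it was listed in 6 of the 7 ATAC-seq lists, E7.2 replicate 1 being the exception. In the posterior part at E7.5 the strongest region of the window was chr11:96180588-96180797, inside this site. ATAC-seq covered 27.8% of the zone at 48 h, against 4.48% at 0 h.

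**Figure D2:**
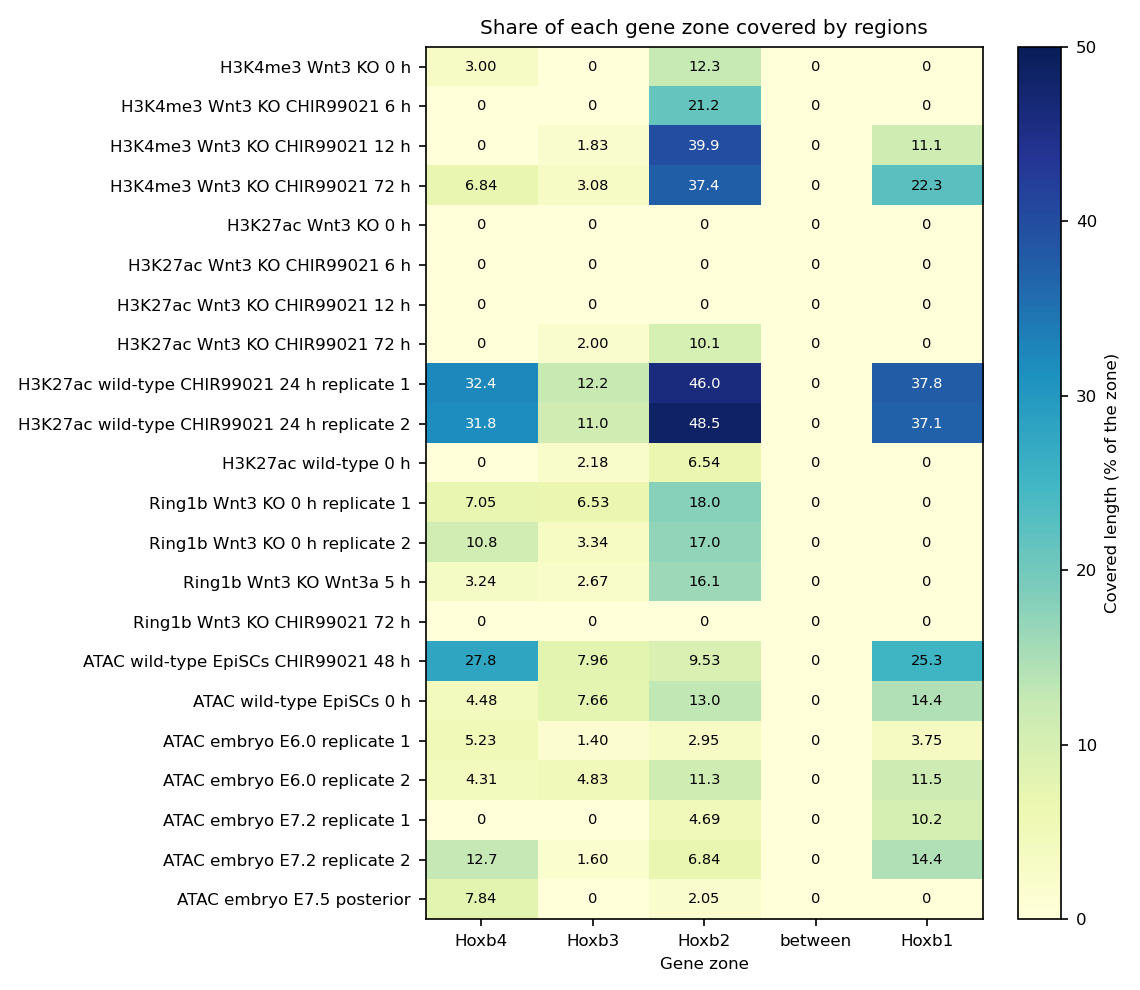
Share of each gene zone covered by regions, in percent, for every list of a labelled group except H3K27me3; rows are single libraries and the colour scale gives the same values as the printed numbers. The Hoxb2 column holds the highest H3K4me3 and Ring1b values, the Hoxb1 column is at 0 for H3K4me3 until 12 h, and no list covers the stretch between the 2 genes.

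Over the window as a whole, 3 H3K4me3 regions covered 2.25% at 0 h and 2 covered 2.98% at 6 h. By 12 h, 5 regions covered 7.97%, and by 72 h, 7 regions covered 10.9%. Of the 7 regions at 72 h, 5 shared no base with a region at 0 h, where 6.69% of all 72 h regions of the genome did so. They were 1 at Hoxb4, 2 at Hoxb3, 1 at Hoxb2 and 1 at Hoxb1. In the 72 h list, 5.52% of regions were weaker than that at Hoxb4, and 6.50% and 0.543% than those at Hoxb3. The shares were 7.85% for that at Hoxb2 and 47.4% for that at Hoxb1. All but that at Hoxb1 were thus near the lower end of the list, while the genome-wide share covers regions of all strengths. Of the 5 regions at 12 h, 3 shared no base with a region at 6 h (7.23% genome-wide), 1 each at Hoxb3, Hoxb2 and Hoxb1. In that order, 3.37%, 34.1% and 22.3% of the 12 h list was weaker. In the other direction, 1 of the 3 regions at 0 h was not listed at 72 h (4.83% genome-wide), that of Hoxb4. With 1 library at each time there is no replicate error for H3K4me3 and no test was run. The lists were of similar length, 16287 to 17714 regions. Median region widths were 1237 and 1230 bp at 0 h and 72 h, from 1 folder, and 930 and 936 bp at 6 h and 12 h, from another. Between these pairs of times, folder and time cannot be told apart in the covered length.

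H3K27ac in wild-type cells covered 22.6% ± 0.246 of the window at 24 h (SD, n = 2), against 1.87% at 0 h (n = 1). The difference of 20.7 percentage points was larger than the spread between the 24 h replicates. These replicates shared a folder and the 0 h list came from another, so their spread does not measure a difference between folders. With 1 library at 0 h no test was run. Of the 15 regions of replicate 1 and the 14 of replicate 2, 12 of each overlapped the other replicate. The share over all regions of these lists was not taken, so the counts describe the window only. Beside this, the 24 h lists were longer (29056 and 27422 regions) than the 0 h list (14453), and with the strongest regions only, to equal list lengths, the difference was 12.7 points. In the window 14 of 15 and 13 of 14 regions shared no base with a 0 h region, where 64.7% and 62.8% of the 24 h regions did genome-wide. In Wnt3 KO cells coverage was 0% at 0, 6 and 12 h and 2.30% at 72 h. Both regions at 72 h, 2 of 2, shared no base with a region listed at 0 h, where 17.4% of all 72 h regions did so. By −log10 p, 9.83% of the 72 h list was weaker than the region at Hoxb3 and 59.8% than that at Hoxb2.

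Ring1b covered 4.00% of the window after 5 h of Wnt3a and 0% at 72 h of CHIR99021 (n = 1 each), against 6.19% ± 0.624 at 0 h (SD, n = 2). Both differences, -2.19 and -6.19 points, were larger than the SD of the 0 h replicates. These replicates came from different folders, replicate 1 from that of Wnt3a and replicate 2 from that of 72 h. Against the replicate of the same folder the differences were -2.63 points after Wnt3a and -5.75 points at 72 h. All 5 and 4 regions of the 0 h replicates were not listed at 72 h, and this holds for 78.5% and 78.3% of their regions genome-wide, so the share at these genes was near that of the whole list. The 72 h list was the shortest of this mark, with 604 regions. After Wnt3a, 2 of 5 and 1 of 4 regions were not listed, all at Hoxb3, against 18.6% and 28.6% genome-wide. With lists of equal length the difference was -0.928 points after Wnt3a and -3.19 points at 72 h. H3K27me3 coverage was 0% after Wnt3a and at 6, 12 and 72 h, against 0% and 0.570% in the 0 h replicates. Its lists ran from 1012 regions after Wnt3a to 6236 in 0 h replicate 2. Their median region widths were between 389 and 527 bp. A mark spread over the whole window may not be listed as such narrow regions, so H3K27me3 cannot be called absent at any time. The mean difference of H3K27me3 was -0.285 points both after Wnt3a and at 72 h, beside an SD of 0.403 points at 0 h. With 1 of the 2 replicates and the stimulated list at 0%, such a difference always lies within the SD. Nothing is read from it. At a −log10 q of at least 5 the difference was 0 points.

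Regions of Ring1b at 0 h in Wnt3 KO cells were set against those of H3K27ac at 24 h in wild-type cells. Of the Ring1b regions of the 0 h replicates, 4 of 5 and 4 of 4 overlapped an H3K27ac region of 24 h replicate 1, and 4 of 5 and 4 of 4 one of replicate 2. Genome-wide 23.9% and 25.5% of the Ring1b regions overlapped replicate 1, and 22.4% and 23.3% overlapped replicate 2. The exception was a Ring1b region of 412 bp at Hoxb3, chr11:96207178-96207589. The H3K4me3 regions at 72 h overlapped H3K27ac regions of the 24 h replicates in 6 and 7 of 7 cases, near the shares of 81.9% and 80.4% over all 72 h regions. Both H3K27ac regions of Wnt3 KO cells at 72 h overlapped a Ring1b region of each 0 h replicate, as did 1.75% and 2.03% of all regions of that list. The wild-type and Wnt3 KO lists differ in cells and time, and the H3K27ac and Ring1b lists of Wnt3 KO cells differ in time. The overlaps concern positions only.

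At Hoxb1, Hoxb2 and Hoxb4 the summit of an open region at 48 h stood between neighbouring regions of H3K27ac at 24 h, both in wild-type cells. At Hoxb1 the ATAC-seq summit at chr11:96226937 stood outside every H3K27ac region at 24 h, 143 bp and 146 bp from the end of the region on its left and 96 bp and 80 bp from the start of that on its right in replicates 1 and 2. At Hoxb2 the summit at chr11:96211584 stood 187 bp and 183 bp from the region on its left and 304 bp and 438 bp from that on its right. At Hoxb4 the summit at chr11:96180725 stood 328 bp and 970 bp from the region on its left and 59 bp and 25 bp from that on its right. Of the 48 h open regions in the window that overlapped an H3K27ac region, the summit lay outside it in 5 of 6 for replicate 1 and in 3 of 5 for replicate 2. Over the genome the summit lay outside in 28.5% of 18202 and 30.6% of 17621 such regions. The pattern was looked for after the regions had been seen.

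ATAC-seq coverage of the window was 13.2% in wild-type EpiSCs at 48 h, against 8.0% at 0 h, from 11 and 9 regions. No replicate exists in EpiSCs, and the difference of 5.25 points can only be set beside the SD of the E6.0 embryo replicates, 2.55 points. Of the 11 regions at 48 h, 5 shared no base with a 0 h region (27.5% genome-wide), 1 at Hoxb4, 2 at Hoxb2 and 2 at Hoxb1. Of the 9 regions at 0 h, 3 were not listed at 48 h, near the genome-wide share of 33.8%, 1 at Hoxb3 and 2 at Hoxb2. The 7 ATAC-seq lists together defined 18 sites, of which 6 stood in 1 list and none in all 7.

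**Figure D3:**
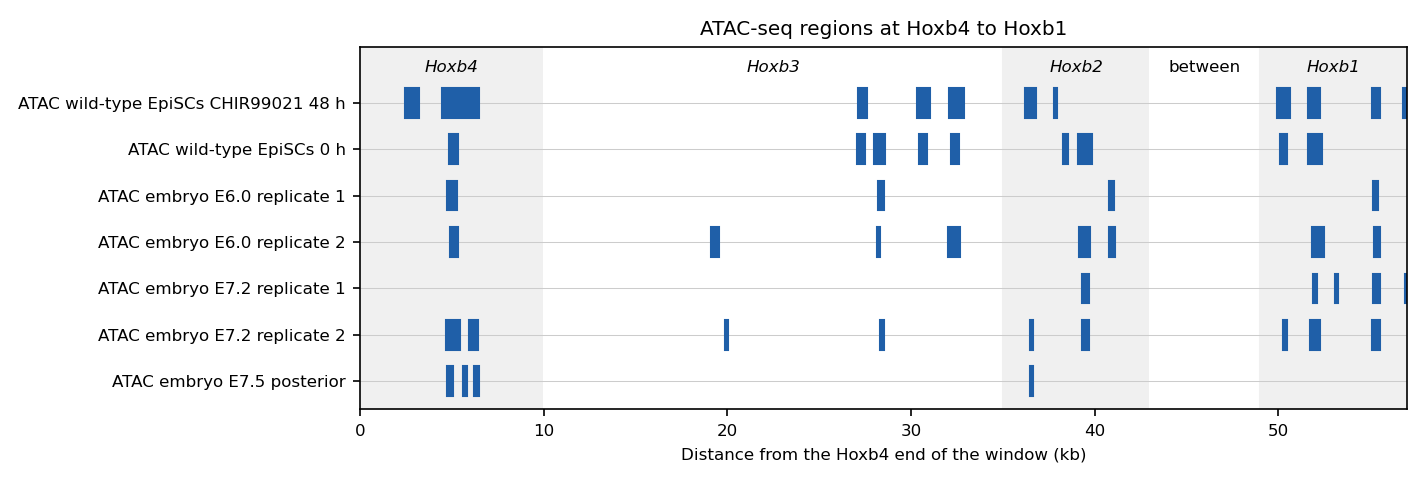
ATAC-seq regions of each list along the window, in kb from the Hoxb4 end; each bar is 1 region drawn to scale, rows are single libraries and shading separates the gene zones. The site near 55 kb in the Hoxb1 zone is listed in EpiSCs at 48 h and in all 4 E6.0 and E7.2 libraries, and the posterior part at E7.5 shows regions in the Hoxb4 and Hoxb2 zones only.

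In the embryos, replicates of a stage differed more than the stages. E7.2 libraries covered 2.1% and 5.91% of the window and E6.0 libraries 2.47% and 6.08%, with overlapping ranges. The E7.2 mean was 4.00% ± 2.69 and the E6.0 mean 4.27% ± 2.55 (SD, n = 2 each), a difference of -0.273 points (exact two-sided permutation test, p = 0.667, the smallest p possible being 0.333). The first replicates of both stages came from 1 folder and the second from another, and within the folders the differences were -0.375 and -0.170 points. The sign was reversed when E7.2 replicate 1 (1.63 points) or E6.0 replicate 2 (1.53 points) was left out, so no direction is given. With a replicate left out, 1 stage comes from 1 folder and the other stage from both. The posterior part at E7.5 covered 1.66%, a difference of -2.34 points from the E7.2 mean that is within the SD of 2.69 points. It was -0.433 points from E7.2 replicate 1, which shares its folder. All 4 regions of the posterior part overlapped a region of EpiSCs at 48 h, and 1 of the 4 overlapped a region of EpiSCs at 0 h. Over all regions of the posterior part, 60.3% overlapped the 48 h list and 53.8% the 0 h list, and with 4 regions no likeness is read from the counts.

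**Figure D4:**
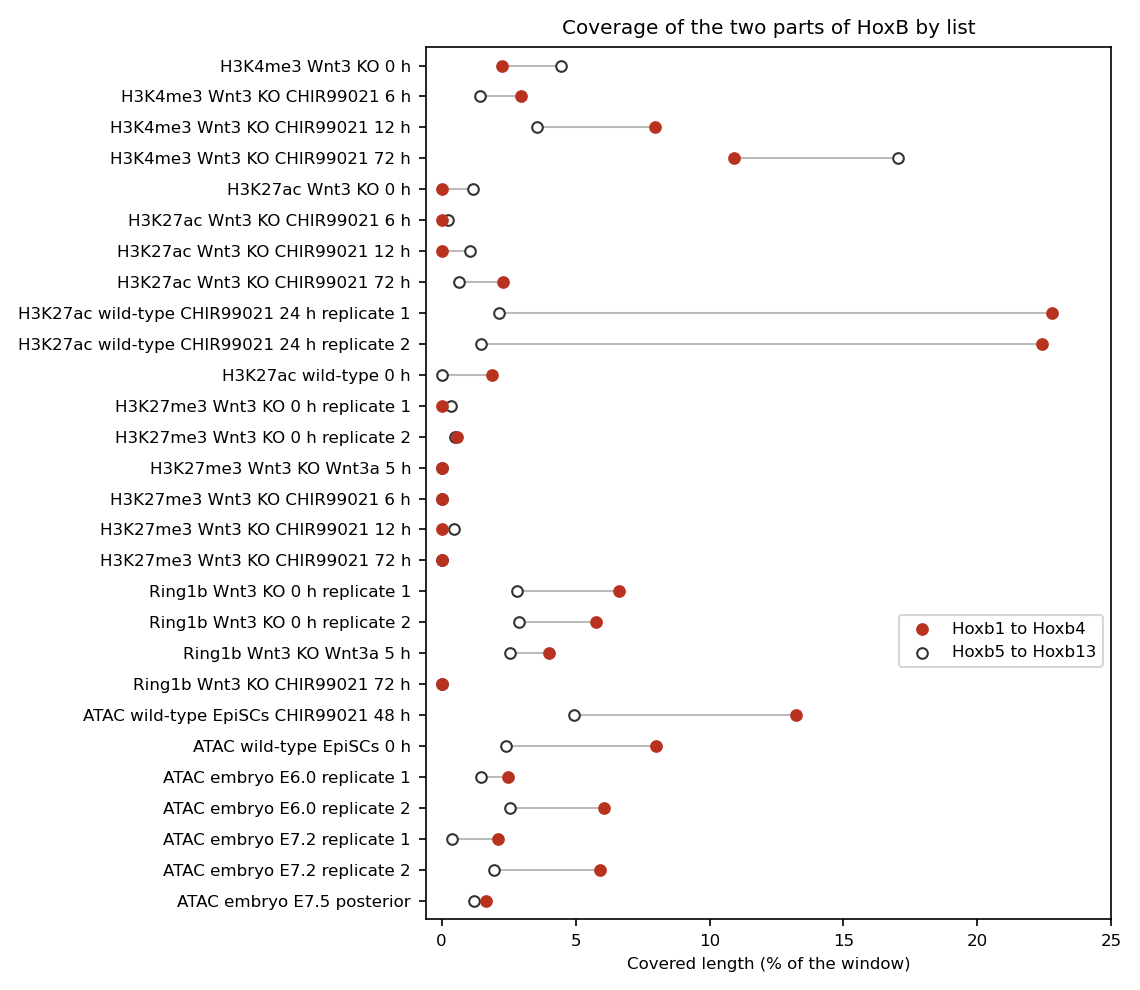
Covered length in percent of the Hoxb1 to Hoxb4 window (filled points) and of the neighbouring Hoxb5 to Hoxb13 window (open points), 1 row for each library. H3K27ac at 24 h in wild-type cells covers 22.8% and 22.4% of the first window and 2.15% and 1.48% of the second, whereas H3K4me3 at 72 h covers 10.9% and 17.1%.

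The rest of the cluster, from Hoxb5 to Hoxb13 (130 kb, 147 regions in all lists), was set beside these genes. H3K4me3 covered more of the Hoxb1 to Hoxb4 window than of the other at 6 h (2.98% and 1.45%) and at 12 h (7.97% and 3.55%). It covered less of it at 0 h (2.25% and 4.44%) and at 72 h (10.9% and 17.1%). The direction split by processing folder, with 6 h and 12 h in one and 0 h and 72 h in another, and median region widths were 930 and 936 bp in the first and 1237 and 1230 bp in the second. Time and folder cannot be told apart in this direction. H3K27ac in wild-type cells at 24 h covered 22.8% and 22.4% of the Hoxb1 to Hoxb4 window in the 2 replicates and 2.15% and 1.48% of the Hoxb5 to Hoxb13 window. For H3K27ac in Wnt3 KO cells, coverage of the Hoxb1 to Hoxb4 window was 0% at 0, 6 and 12 h, beside 1.18%, 0.231% and 1.04% of the Hoxb5 to Hoxb13 window at these times. At 72 h it covered 2.30% and 0.647%. ATAC-seq coverage was higher in the Hoxb1 to Hoxb4 window in each of the 7 lists, by the widest margin in EpiSCs at 48 h (13.2% and 4.93%). Ring1b at 0 h covered 6.63% and 5.75% of the Hoxb1 to Hoxb4 window in the 2 replicates and 2.81% and 2.88% of the other. The 2 windows differ in length and in gene density, and the difference between them was not tested.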

How the data were processed

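The deposited files used were 32 lists of peaks in mm9 coordinates (23 ChIP-seq with an antibody, 2 inputs, 7 ATAC-seq), 1 list for each library. The 25 4C samples were not analysed here. Per the submitters' processing notes, MACS2 2.1.0 and SAMtools 0.1.19 were used for both assays, with Bowtie 1.1.0 in ChIP-seq, and with Bowtie2 2.1.0 and cutadapt 1.8.1 in ATAC-seq. For both wild-type H3K27ac libraries at 24 h and the wild-type H3K4me3 pair, tools were not given in the sources used here. Peak names in the files carry an extension of 300 bp and a local background of 100 kb. In the deposited lists fold enrichment is the ratio over local background that the authors' peak caller gave, and −log10 p and −log10 q come from that caller too. No deposited region had a −log10 p under 5.000. Depth is unknown.

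Regions were called overlapping from 1 shared bp, and covered length was the share of a window or zone under regions (Python 3.11.15, pandas 2.3.3). Interval code was tested on simulated data. Regions named are those with the highest −log10 p in each list and zone, sites joined over the lists of an assay, and overlaps described between marks. The ATAC-seq summits were examined after the regions had been seen. Same-numbered E6.0 and E7.2 replicates share a processing folder but no stated litter, so numbers were not taken to pair them. The window, zones, members and tests were chosen with earlier results of these data known. Alternatives were −log10 q of at least 5, equal list lengths, a window 5 kb longer on each side, merging within 1 kb, an overlap of 50%, and leaving out each replicate.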

Additional observations from a re-analysis of the deposited data

Results flagged for a closer look

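The wild-type H3K4me3 libraries whose title and stimulation label disagree had 8 regions (library 1) and 9 regions (library 2) in the window, against 0 in each input library. They were set apart because they belong to no labelled group and entered no comparison between labelled groups.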

How the results depend on the processing

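The 5 H3K4me3 regions gained at 72 h and the 3 gained at 12 h stayed within 1.5 times of these counts under all alternatives run (4 to 7 and 2 to 3). The H3K27ac difference in wild-type cells (20.7 points) was 12.7 with lists of equal length, 18.5 in the longer window and 25.7 with merging within 1 kb, and 20.5 to 20.9 with either replicate left out. The Wnt3 KO difference of 2.30 points was 1.95 in the longer window. For Ring1b at 72 h (-6.19 points) the value was -3.19 with equal lengths, -5.27 in the longer window and -6.63 to -5.75 with a replicate left out. For Ring1b after Wnt3a (-2.19 points) it was -0.928 with equal lengths and -2.63 to -1.75 with a replicate left out. H3K27me3 ranged from -0.570 to 0 points with a 0 h replicate left out. The E7.2 against E6.0 difference turned positive with equal lengths (1.08 points) and with merging (1.11), and ran from -2.18 to 1.63 points with a replicate left out. The cause of these changes was not tested, and leaving out a replicate also leaves the folders unequal between the stages. The E7.5 posterior difference ran from -4.24 to -0.433 points. With the replicate number as a block, E7.2 against E6.0 remained -0.273 points (exact permutation p = 0.5, the smallest possible with 2 pairs). Since depth is unknown, a region that is not listed cannot be called absent.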

Other observations

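The unassigned wild-type H3K4me3 libraries differed in coverage at each gene. In library 1 a Hoxb1 region of 391 bp stood at chr11:96227072-96227462, and the strongest region of the window was at Hoxb3, chr11:96202058-96203785. In library 2 the Hoxb1 region was 2307 bp long, chr11:96227005-96229311, and the strongest of the window. H3K4me3 covered 4.89% of the Hoxb1 zone in library 1 and 28.8% in library 2, 31.3% and 53.8% of the Hoxb2 zone, 12.7% and 8.59% of the Hoxb3 zone, and 12.9% and 26.6% of the Hoxb4 zone. Library 2 also listed a Hoxb4 region at chr11:96175921-96176720, a place without a region in library 1.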
